A study of Mus musculus with 56 samples.

Results

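The complex I assembly factor genes Ndufaf1 to Ndufaf8 encode 8 proteins that help to build mitochondrial complex I and are not part of the finished enzyme. They were taken by name, and all 8 were found among the 57010 genes of the deposited count table and passed the filter on low counts in every comparison below. The family was put forward with earlier results of these data known, in which Ndufaf5 was selected on its large rise in total RNA of females, so that rise is given here as a description without a test. The data came from gastrocnemius, a calf muscle, of 28 mice of 20 to 22 weeks, and by the labels each mouse gave a ribosomal and a total library, 56 in all. Mice of all groups carried ribosomal protein L10A tagged with GFP and switched on by Cre recombinase, which was expressed from the Mlc1f promoter of muscle fibres. In labelled knockouts Elavl1, the gene of the RNA-binding protein HuR, was also floxed, so that Cre could remove it where it was expressed. Ribosomal RNA here means RNA recovered with the tagged ribosomes, and total RNA means RNA of the whole muscle homogenate. There were 7 mice in each of 4 groups (female controls, female labelled knockouts, male controls and male labelled knockouts). The labels' protocol names 14 female and 14 male mice, while the series' design text gives 7 of each sex. The 28 numbered mice fit the first, and nothing beyond those numbers was used to tell mice apart.

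Complex I is the first enzyme of the respiratory chain. It passes electrons from NADH to ubiquinone and pumps protons across the inner mitochondrial membrane, and muscle fibres hold much of it. Its subunits come from nuclear and mitochondrial genes and are joined in modules: one that holds the NADH site, one that holds the ubiquinone site (the Q module) and a membrane arm. Assembly factors modify single subunits, hold intermediates together and leave before the enzyme is complete. NDUFAF5 hydroxylates an arginine of the Q module subunit NDUFS7, NDUFAF7 is an arginine methyltransferase, and NDUFAF8 binds and stabilises NDUFAF5. NDUFAF3 and NDUFAF4 act together on the Q module, NDUFAF6 acts early and resembles a phytoene synthase, NDUFAF1 belongs to the membrane arm complex with ACAD9, ECSIT and TMEM126B, and NDUFAF2 is a relative of the subunit NDUFA12 that leaves when NDUFA12 is added. Loss of several of these proteins in people is known to cause complex I deficiency.

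The libraries are counts of tags at the 3′ ends of mRNAs, so levels are compared between samples and never between genes. Ribosomal libraries held 0.16 to 3.58 M counts in genes, where M stands for mega, (median 1.62) and total libraries 2.43 to 5.85 M (median 3.56). In ribosomal libraries 7 of 28 were under 0.75 M, 3 of them from female labelled knockouts and 2 from female controls. In total libraries 5 of 28 had over 19% of reads outside genes, 4 of them controls. Ribosomal libraries of female labelled knockouts (0.491 to 1.207 M, median 0.937) were shallower than most of those of female controls (0.423 to 3.059 M, median 1.589). In males they held 0.16 to 3.579 M in labelled knockouts and 0.705 to 2.846 M in controls. The part of depth in the female ribosomal comparisons was not tested beyond leaving out the libraries under 0.75 M. All 8 muscle fibre markers (Acta1, Ckm and others) had counts in every group, with summed levels of 26800 to 53900 counts per M (CPM) in total RNA and 65700 to 208000 in ribosomal RNA. Elavl1 itself was not called in any knockout comparison (log2 fold changes 0.27 and 0.28 in ribosomal RNA and −0.01 and −0.14 in total RNA, females first). The deleted exons are not given in the sources used here, other cells of the muscle keep Elavl1, and a 3′ tag outside the deleted part checks nothing. For that reason these groups are named by their label. Levels below are CPM with all 56 libraries scaled together by TMM. Fold changes and tests come from edgeR's quasi-likelihood test, and calls were made where the p, adjusted by Benjamini and Hochberg's method over all genes tested, was under 0.05.

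The genes lie on chromosomes 2 (Ndufaf1 and Ndufaf5), 13 (Ndufaf2), 9 (Ndufaf3), 4 (Ndufaf4 and Ndufaf6), 17 (Ndufaf7) and 11 (Ndufaf8). Ndufaf5 (ENSMUSG00000027384.7) is shown first because it was the member that differed between labelled knockouts and controls in both sexes and both kinds of RNA. The stretches shown are its promoter and its short 3′ untranslated region. RefSeq promoter windows of build GRCm38.p6, from 250 bases before to 50 after the start of a gene, were found for 7 of the 8 members. The motif CGCATGCG, the core of sites of the nuclear respiratory factor NRF1 and its own reverse complement, was present in the windows of Ndufaf5 and Ndufaf4 and in 1.87% of all 32851 windows of that length. In Ndufaf5 (chr2:140170396-140170695, plus strand) it starts 17 bases after the start site, and in Ndufaf4 (chr4:24897833-24898132, plus strand) 112 bases before it. Ndufaf4 is printed beside Ndufaf5 because it shares the motif and did not change. The motif is in capitals.
Ndufaf5 promoter: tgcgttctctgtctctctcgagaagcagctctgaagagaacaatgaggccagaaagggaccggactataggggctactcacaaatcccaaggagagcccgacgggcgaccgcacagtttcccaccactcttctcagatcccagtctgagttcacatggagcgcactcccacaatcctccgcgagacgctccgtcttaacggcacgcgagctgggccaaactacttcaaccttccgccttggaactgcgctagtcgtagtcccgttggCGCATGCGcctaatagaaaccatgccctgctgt
Ndufaf4 promoter: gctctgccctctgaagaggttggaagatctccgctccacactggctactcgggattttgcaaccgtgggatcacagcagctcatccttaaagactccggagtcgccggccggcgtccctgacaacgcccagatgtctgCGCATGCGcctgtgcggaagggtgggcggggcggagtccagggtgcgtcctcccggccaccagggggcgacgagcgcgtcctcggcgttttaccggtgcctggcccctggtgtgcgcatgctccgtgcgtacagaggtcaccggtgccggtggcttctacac
The motif CCGGAAG, bound by the ETS factor GABP and searched on both strands, was in the windows of Ndufaf1 and Ndufaf8 and in 8.86% of all windows. AAGGTCA, a site of the estrogen-related receptors, was in none of the 7 and in 4.72% of all windows. None of these matches overlapped. They describe letters in these windows and say nothing of binding.

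HuR is known to bind U-rich and AU-rich elements in 3′ untranslated regions. The longest annotated 3′ untranslated region of Ndufaf5 in GENCODE M21 has 71 bases, 76.1% of them A or T, and holds the pentamer ATTTA at a single place. Of 470 genes of like length (the shorter region at least 0.8 of the longer), 9.79% hold it. Ndufaf6 has 52 bases, 78.8% A or T, and also a single ATTTA, against 7.92% of 303 genes of like length. The stretches around both pentamers are printed because Ndufaf5 rose and Ndufaf6 did not, with the pentamer in capitals.
Ndufaf5 site: tagctttcacATTTAaacta
Ndufaf6 site: gctcatactgATTTActtttagttt
Ndufaf4, which has the longest region of the family (3026 bases), holds ATTTA 8 times, where the median of 2430 genes of like length is 5. Ndufaf1 and Ndufaf2 hold none. The run TTTTT was found in neither Ndufaf5 nor Ndufaf6.

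Ndufaf5 was 1.78 times as high, by the ratio of means, in labelled knockouts as in controls in ribosomal RNA of females. Controls ran from 102.8 to 165.0 CPM with a median of 131.3, and labelled knockouts from 160.4 to 269.1 with a median of 246.2. Of the 7 labelled knockouts 6 were above all controls, and female knockout 5 at 160.4 CPM was the exception, below female control 19 at 165.0. The log2 fold change was 0.89 (standard error 0.12, 95% interval 0.65 to 1.14, edgeR adjusted p = 3.63e-06). These mice also gave the total libraries in which Ndufaf5 was selected. Ndufaf5 was the single member called of 8 in a comparison where 16.8% of 9098 genes were called. Without the libraries under 0.75 M counts the rise stayed past the threshold, and without female knockout 5 it was 0.97.

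The rise had the same size in ribosomal RNA of males. Controls ran from 70.58 to 115.2 CPM with a median of 87.22, and labelled knockouts from 131.2 to 187.5 with a median of 150.1. The groups did not overlap. The log2 fold change was 0.89 (standard error 0.119, 95% interval 0.65 to 1.13, edgeR adjusted p = 2.09e-06), and Ndufaf5 ranked 37 by p among all genes. It was again the single member called of 8, where 8.96% of all genes were called. The difference of the effect between the sexes was −0.00 (95% interval −0.38 to 0.38), and no member was called in that comparison, where 3.43% of genes were. At an unadjusted p under 0.05, edgeR gave 3 members there, Ndufaf1, Ndufaf2 and Ndufaf3, each with a more positive change in males, where 20.7% of all genes passed.

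**Figure D1:**
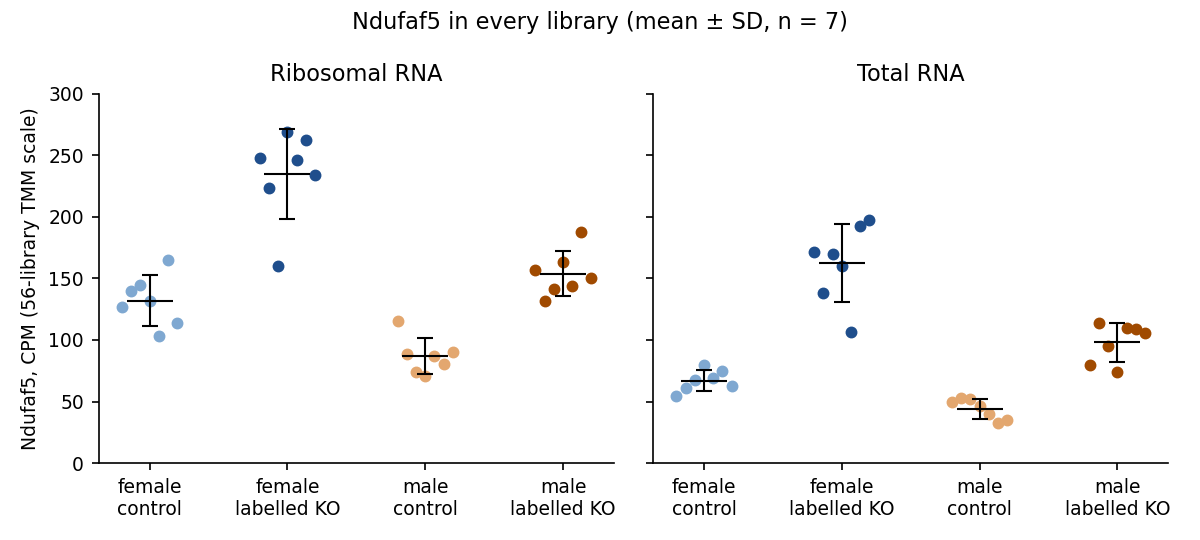
Ndufaf5 in CPM on the vertical axis, for ribosomal libraries (left) and total libraries (right). Each point is 1 library, the bar is the mean and the whisker 1 SD (n = 7). In each pair of a sex the labelled knockouts lie higher, and the groups touch only in ribosomal RNA of females, where knockout 5 has 160.4 and control 19 has 165.0 CPM.

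In total RNA of females, the comparison in which Ndufaf5 was selected, controls ran from 54.66 to 79.54 CPM with a median of 67.19, and labelled knockouts from 106.2 to 197.4 with a median of 169.9. The groups did not overlap, and the log2 fold change was 1.26 (standard error 0.124, 95% interval 1.01 to 1.51). Of all 12860 genes tested in this comparison 8.49% were called and 1.41% differed by a log2 value of at least 1. Nothing is read from that share, since this comparison put the gene forward. In total RNA of males, controls ran from 32.43 to 53.02 CPM with a median of 46.07, and labelled knockouts from 74.13 to 113.9 with a median of 105.4. Here too every labelled knockout was above every control. The log2 fold change was 1.12 (standard error 0.126, 95% interval 0.87 to 1.38, edgeR adjusted p = 2.18e-06), the rank by p was 2 of 12860 genes, and 14.2% of genes were called. The male mice share no library with the female ones, but both sexes of a kind of RNA share 1 estimate of the spread. Without the 5 total libraries with most reads outside genes, 3 of which are male controls, the male value was 0.94 and the male call was kept.

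Over the 8 groups the mean levels of Ndufaf5 fell in the order female labelled knockouts in ribosomal RNA (234.7 ± 36.2 CPM, SD, n = 7), female labelled knockouts in total RNA (162.2 ± 31.8), male labelled knockouts in ribosomal RNA (153.6 ± 18.3), female controls in ribosomal RNA (132.0 ± 20.5), male labelled knockouts in total RNA (98.09 ± 15.6), male controls in ribosomal RNA (86.59 ± 14.6), female controls in total RNA (66.88 ± 8.49) and male controls in total RNA (44.08 ± 8.3). Of the 7 neighbouring pairs in this order 2 lay within 1 SD of each other: the second and the third group, and the fifth and the sixth. Ndufaf5 was lower in males than in females. In controls the log2 difference was −0.64 in ribosomal RNA (standard error 0.12, edgeR adjusted p = 0.000416) and −0.60 in total RNA (standard error 0.127), and no other member was called in either. All 7 male controls were below all 7 female controls in total RNA. The total RNA value is given without a test, since these female controls are among the libraries in which the gene was selected. Of all genes, 7.63% were called between the sexes in ribosomal RNA and 8.7% in total RNA. Ndufaf4 had the opposite sign (0.31 and 0.19, adjusted p = 0.0777 and 0.0956).

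NDUFAF8 is the partner protein of NDUFAF5. Ndufaf8 ran from 243.1 to 668.4 CPM (median 326.6) in female controls and from 308.3 to 636.1 (median 555.1) in female labelled knockouts, so the groups overlapped over most of their range. The log2 fold change of 0.42 (95% interval 0.02 to 0.83) missed the threshold (edgeR adjusted p = 0.14). It passed without the ribosomal libraries under 0.75 M counts (0.47, adjusted p = 0.0369) and without female control 19 alone (0.58, adjusted p = 0.0248), the control with 668.4 CPM. The male value was −0.05 (95% interval −0.45 to 0.35). In total RNA it was 0.21 in females and 0.31 in males (95% interval 0.05 to 0.58, adjusted p = 0.0989).

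The Q module factors Ndufaf3 and Ndufaf4 and the early factor Ndufaf6 did not pass in any knockout comparison. Ndufaf4 lay within 0.16 of no change on the log2 scale in all 4, and its intervals reached from −0.19 to 0.39, which leaves out a change as large as that of Ndufaf5. Female controls had 183.6 ± 14.5 CPM of it in total RNA and female labelled knockouts 190.4 ± 9.03, while the male groups had 210.7 ± 16.6 and 206.1 ± 21.4 (SD, n = 7 each). Ndufaf3 was low in counts, with as few as 1 count in a ribosomal library, and its intervals were wide: −0.31 (−0.79 to 0.17) in ribosomal RNA of females and 0.34 (−0.03 to 0.71) in males. Ndufaf6 was −0.30 (95% interval −0.57 to −0.03, edgeR adjusted p = 0.113) in ribosomal RNA of females and passed when female control 21 was left out (−0.39, adjusted p = 0.0374). In total RNA of females Ndufaf6 was 0.21 (95% interval −0.02 to 0.44), where 5 labelled knockouts of 7 exceeded every control and female knockout 9 was below them all at 33.53 CPM. That library is 1 of the 5 with most reads outside genes.

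NDUFAF7, a methyltransferase, came from a gene with few counts. Ndufaf7 had 0 counts in ribosomal female control 19, a library of 0.423 M counts, where 0 allows up to 3 counts. In total RNA of males, controls ran from 10.89 to 20.3 CPM (median 14.88) and labelled knockouts from 17.77 to 22.43 (median 19.41), with 5 of 7 controls below all labelled knockouts. The log2 fold change of 0.35 (95% interval 0.10 to 0.61) was just short of the threshold (edgeR adjusted p = 0.0529). It passed without male control 21 (0.43, adjusted p = 0.0188), without male control 23 (0.40, adjusted p = 0.0452) or without female knockout 9 (0.35, adjusted p = 0.0336), and fell to 0.20 without the 5 libraries with most reads outside genes. In females the value was 0.18 (95% interval −0.08 to 0.44). In ribosomal RNA it was −0.06 in females and −0.07 in males, with intervals that spanned 0.

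The membrane arm factor Ndufaf1 and the late factor Ndufaf2 were lower in ribosomal RNA of female labelled knockouts without passing the threshold. Ndufaf1 ran from 31.98 to 50.77 CPM (median 36.11) in controls and from 22.57 to 32.71 (median 29.8) in labelled knockouts, and 5 of 7 labelled knockouts were below all controls (−0.31, edgeR adjusted p = 0.149). Ndufaf2 ran from 21.68 to 38.43 CPM (median 27.85) in controls and from 10.26 to 26.36 (median 17.61) in labelled knockouts, again with 5 of 7 below all controls (−0.46, adjusted p = 0.119). Both were at or above control levels in ribosomal RNA of males, at 0.14 and 0.12. In total RNA of males Ndufaf2 was 0.30 (95% interval 0.06 to 0.55, adjusted p = 0.0845), and it passed without male knockout 12 (0.38, adjusted p = 0.0349) or without male control 22 (0.36, adjusted p = 0.0474). Ndufaf3 was 0.36 in the same comparison (adjusted p = 0.127) and passed without male knockout 1 (0.46, adjusted p = 0.0374). Ndufaf1 in total RNA lay between −0.06 and −0.00, with intervals from −0.22 to 0.16.

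**Figure D2:**
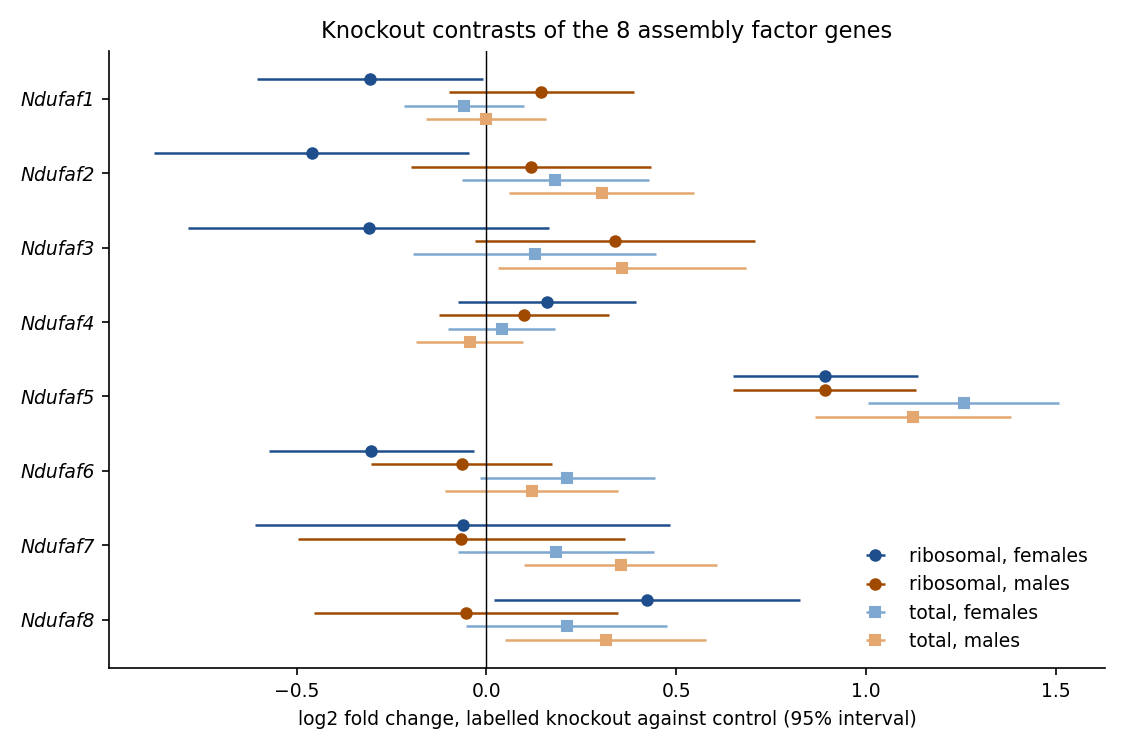
Log2 fold change of labelled knockouts against controls on the horizontal axis for each of the 8 genes, with 95% intervals from edgeR. Circles are ribosomal RNA and squares total RNA. Ndufaf5 stands at 0.89 to 1.26 in all 4 comparisons, while the other 7 genes lie between −0.46 and 0.42.

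Across the 8 members the median log2 change was −0.18 in ribosomal RNA of females, 0.11 in ribosomal RNA of males, 0.18 in total RNA of females and 0.31 in total RNA of males. The medians over all genes tested were −0.02, −0.01, 0.01 and 0.00 in the same order. In ribosomal RNA 3 of 8 members in females and 5 of 8 in males were above the median of all genes. In total RNA these counts were 7 of 8 in females, with Ndufaf5, which was selected there, among them, and 6 of 8 in males. Leaving Ndufaf5 aside, no member was called for the difference of the total RNA effect between the sexes, and 0% of all genes were called there with edgeR. At an unadjusted p under 0.05 none of these members passed, and 9.53% of all genes did. For Ndufaf5 that difference was −0.13 (95% interval −0.49 to 0.22), given without a test because it contains the total libraries of the selection.

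Ribosomal and total libraries were next compared. The log2 differences and tests are between group means without a term for the mouse, while the ratios are within mice. In controls most members were called higher in ribosomal RNA: 6 of 8 in females and 7 of 8 in males. The 6 include Ndufaf5, which is given without a test there. Of all 12546 genes, 3772 in females and 4023 in males were called higher. In either direction 68.1% and 70.7% of genes were called, and the medians of all genes were −0.12 and −0.09. Ndufaf8 had the largest difference, 1.81 (standard error 0.172, edgeR adjusted p = 5.34e-14) in females and 1.37 (standard error 0.168, adjusted p = 2.19e-10) in males. Within mice its ribosomal to total ratio was 2.34 to 6.58 in female controls and 1.75 to 4.41 in male controls, above 1 in all 14. Ndufaf5 followed in females at 0.97, with ratios of 1.49 to 2.32. That value is given without a test, because its total libraries are among those in which the gene was selected. In males Ndufaf5 was 0.93 (adjusted p = 4.11e-09) with ratios of 1.42 to 2.58. In males Ndufaf2 was higher, at 1.07 (adjusted p = 9.83e-10). Ndufaf4 was not called in either sex (0.05 and 0.17). Ndufaf7 was not called in females (0.34, adjusted p = 0.11) and was in males (0.53, adjusted p = 0.00533).

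With RLE size factors in place of TMM the median of all genes shifted by −0.23 in both sexes. Ndufaf1 (0.19, adjusted p = 0.087) and Ndufaf3 (0.32, adjusted p = 0.107) in females and Ndufaf7 (0.29, adjusted p = 0.113) in males then missed the threshold, and Ndufaf4 changed sign. Of the genes called, 44.1% were higher in ribosomal RNA in females with TMM and 32.9% with RLE, and 45.4% and 33.1% in males. Relative to the median of all genes with TMM, all 8 members were higher in ribosomal RNA in both sexes. Tagged ribosomes come from cells that express Cre, while total RNA comes from every cell of the muscle, and in bulk RNA fewer cells of a type and less RNA per cell cannot be told apart.

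The change of the ribosomal to total ratio in labelled knockouts was called for no member. In females 3.46% of all genes were called and in males 0.128%. For Ndufaf5 the value was −0.44 in females (95% interval −0.79 to −0.09), given without a test because it contains the total libraries of the selection, and −0.26 in males (95% interval −0.61 to 0.09, edgeR adjusted p = 0.71). The median ratio of Ndufaf5 was 2.15 in female controls and 1.44 in female labelled knockouts, and 2.17 and 1.5 in males, with ranges that overlapped in both. Ndufaf6 was closest to the threshold in females (−0.59, adjusted p = 0.0508), with a median ratio of 1.65 in controls and 0.969 in labelled knockouts. Ndufaf2 was next (−0.71, adjusted p = 0.075), with medians of 1.7 and 0.862. At an unadjusted p under 0.05, Ndufaf2 and Ndufaf6 passed in females, where 18.2% of all genes did. Ndufaf5 is not named with them, though it lay past that limit too, because its value is given without a test. No member passed in males, where 8.85% of all genes did. In females 53.5% of the genes called for this change were higher with TMM and 70.7% with RLE.

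**Figure D3:**
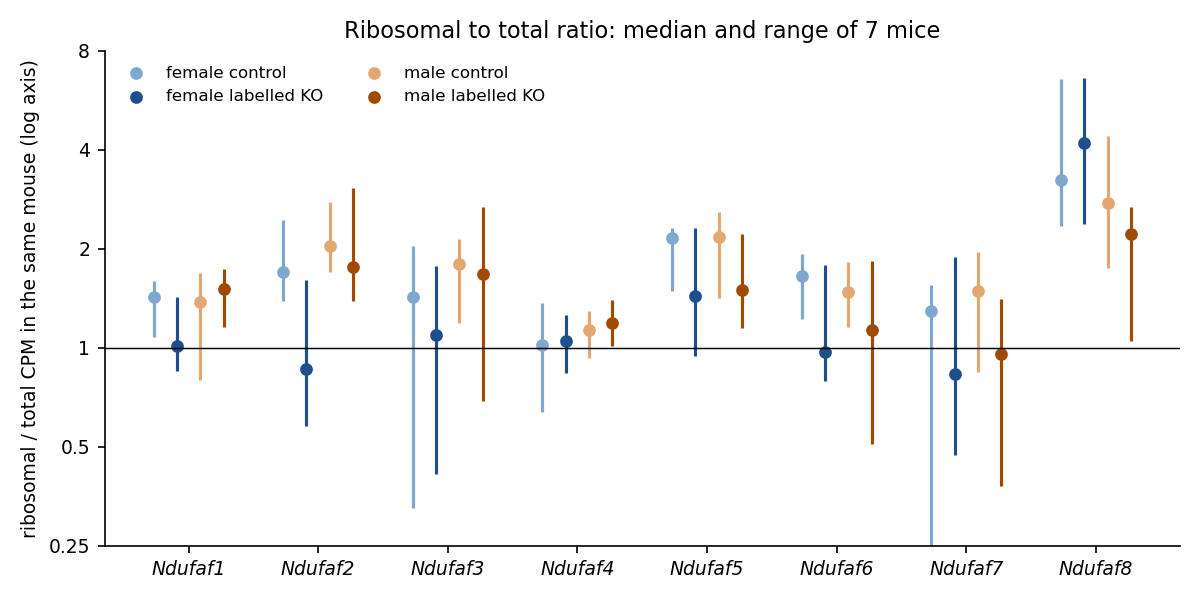
Ratio of ribosomal to total CPM within a mouse, on a log axis, for each gene and group. Points are medians and lines the range of 7 mice. The line of Ndufaf7 in female controls leaves the axis because female control 19 had 0 counts. Ndufaf8 lies above 1 in all mice, and Ndufaf4 lies around 1.

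Markers of other cells moved with the comparisons of Ndufaf5 in part. In ribosomal RNA of females all 6 fibroblast markers rose (summed level 189 to 322 CPM in controls, 351 to 1070 in labelled knockouts), as did 2 of 2 macrophage markers tested (8.33 to 22.2 against 29.3 to 74.6), 5 of 5 erythroid markers (156 to 309 against 334 to 1250), 4 of 4 endothelial markers tested (42.9 to 98.9 against 63.7 to 237) and 7 of 7 mitochondrial mRNAs tested (1640 to 7180 against 6010 to 27700). The liver gene Alb, 1 of 1 liver markers tested, rose too (5 liver markers summed, 1.28 to 19.4 against 13.2 to 122). So did the muscle fibre genes Myh1 and Myh4 (2 of 8) and 2 of 3 Schwann cell markers tested (4 summed, 21.2 to 44.4 against 31.4 to 197). Of 3 adipocyte markers tested 0 were called. Each sum covers all markers listed, tested or not: 5 for macrophages, 6 for endothelial cells and 13 mitochondrial mRNAs. The part of these markers in the rise of Ndufaf5 was not tested. Among males, in ribosomal RNA, 0 of 6 fibroblast, 0 of 2 macrophage, 0 of 4 endothelial and 0 of 3 Schwann cell markers tested were called, and 0 of 7 mitochondrial mRNAs. Called higher there were 5 of 5 erythroid markers, 1 of 3 adipocyte markers tested (Cfd, 0.63) and 1 of 1 liver marker tested (Alb, 2.44). The log2 fold change of Ndufaf5 there was 0.89, and the part of any marker in it was not tested either. In total RNA the fibroblast markers rose in 4 of 6 in females (1200 to 2320 against 1990 to 3340) and 6 of 6 in males (1590 to 2620 against 2590 to 3870), and erythroid markers in 5 of 5 in both. The kidney genes Slc34a1 and Kap rose in total RNA of males, where the summed level of 5 kidney markers reached 862 CPM in male knockout 6. With any 1 library left out, Ndufaf5 stayed past the threshold in ribosomal RNA of both sexes and in total RNA of males.

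Subunits that NDUFAF5 and NDUFAF2 are tied to were looked at next. Ndufs7, whose protein is the substrate of NDUFAF5, was not called in any knockout comparison, with values from −0.10 to 0.04 and intervals from −0.31 to 0.19. Ndufa12, the gene of the subunit that NDUFAF2 is related to, was not called either, at −0.14 to 0.10.

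None of the other assembly factors of complex I was called higher in a knockout comparison. Of 9 tested in ribosomal RNA, 3 fell in females (Dmac2 −0.97, adjusted p = 5.8e-05, Tmem70 −0.49, adjusted p = 0.00859, and Acad9 −1.29, adjusted p = 0.0488) and 1 in males (Timmdc1 −1.11, adjusted p = 0.000612). Acad9 partners NDUFAF1 in the membrane arm complex, and its call was lost under 21 alternatives, among them DESeq2 (−1.28, adjusted p = 0.0868) and RLE scaling (−1.27, adjusted p = 0.0513), with a similar size of the change. TMEM70, TIMMDC1 and DMAC2 also act on the membrane arm. Of 10 tested in total RNA, Dmac2 fell in females (−0.40, adjusted p = 0.00405) and in males (−0.31, adjusted p = 0.0194), and the male call was lost without the 5 libraries richest in reads outside genes (−0.28, adjusted p = 0.0924), without the filter (−0.31, adjusted p = 0.0552) and without male control 25 (−0.26, adjusted p = 0.0559). Median changes of this list were −0.25, −0.15, −0.10 and −0.02 in ribosomal RNA of females and males and total RNA of females and males. In the same order 16.8%, 8.96%, 8.49% and 14.2% of all genes were called in either direction. Those called higher were 768 and 372 of 9098 genes in ribosomal RNA and 488 and 878 of 12860 in total RNA. Nothing particular to this list is read from its counts.

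Of 29 accessory subunits, 4 fell and 1 rose in ribosomal RNA of females, 5 of 29 being close to the 16.8% of all genes called there. They were led by Ndufa8 (−0.64, adjusted p = 0.00333), Ndufb2 (−0.52, adjusted p = 0.0165) and Ndufa10 (−0.40, adjusted p = 0.0219), and without female control 15 Ndufb2 was −0.41 (adjusted p = 0.0677). None was called in ribosomal RNA of males or total RNA of females, and 3 of 29 rose in total RNA of males, where 14.2% of all genes were called (Ndufc2 0.39, adjusted p = 0.0154, Ndufb3 0.27, adjusted p = 0.0269, and Ndufa6 0.28, adjusted p = 0.0393). With the 5 total libraries richest in reads outside genes left out, all 3 calls were lost (adjusted p = 0.0905, 0.259 and 0.256). Of the core subunits encoded in mitochondrial DNA, 5 of 5 tested rose in ribosomal RNA of females, with mt-Nd5 at 2.50 (edgeR adjusted p = 0.000837). In ribosomal RNA of males 0 of 5 were called, and in total RNA of females 0 of 6. In total RNA of males 2 of 6 were called (mt-Nd6 0.51, adjusted p = 0.0114, and mt-Nd5 0.59, adjusted p = 0.0313, which became 0.103 without those 5 libraries). In controls 6 of 6 tested were called lower in ribosomal than in total RNA (median log2 differences −2.95 in females and −3.11 in males). How much of these RNAs in the ribosomal libraries came with the tagged ribosomes was not tested.

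Genes whose levels followed Ndufaf5 most closely were taken from 10191 genes with a mean of at least 5 CPM in total RNA, over the 28 total libraries. Across these libraries, which share the 4 groups and a kit, the highest Pearson correlations of log2 CPM were those of Rcbtb2 (0.90), Retnla (0.90), Col14a1 (0.90), Angptl2 (0.88) and Hacd1 (0.88). The lowest were those of Nt5dc3 (−0.94), Tmem37 (−0.93) and Vldlr (−0.91). These values mix the difference between groups with variation within them. For deviations from the group means they were 0.68, 0.71, 0.70, 0.42, 0.83, −0.74, −0.51 and −0.89 in the same order. In total RNA all 5 of the first rose in labelled knockouts of both sexes and all 3 of the last fell, so the list follows the comparison that chose Ndufaf5. Over the ribosomal libraries the correlation was 0.74 for Retnla, −0.86 for Nt5dc3, −0.79 for Tmem37 and −0.80 for Vldlr, 0.39 for Rcbtb2, 0.22 for Hacd1 and 0.10 for Angptl2, while Col14a1 had too few counts there. Among the members, Ndufaf8 had the highest correlation with Ndufaf5 (0.58 over total and 0.63 over ribosomal libraries). Over total libraries Ndufaf3 (0.57), Ndufaf7 (0.505) and Ndufaf2 (0.495) lay close to it. Over ribosomal libraries the same genes were at −0.15, −0.22 and −0.53. For deviations from the group means in total RNA, Ndufaf8 was at 0.64 and Ndufaf7 at 0.62.

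Esf1 is the neighbour of Ndufaf5 on chromosome 2, on the other strand and with its start beside that of Ndufaf5. It did not change in any knockout comparison (0.25, 0.08, −0.00 and −0.09 in ribosomal RNA of females and males and total RNA of females and males). Sel1l2, on the other side, had too few counts to be tested. Smim15, which overlaps Ndufaf2 on the opposite strand, rose in ribosomal RNA of females (0.53, adjusted p = 0.0281) and in total RNA of both sexes (0.35 and 0.29), and Impdh2, whose end overlaps that of Ndufaf3, was not called. These overlaps (4727 and 48 bases) are those of the GENCODE M21 gene models, and the RefSeq table shows none. The strand setting of the authors' counting is not given in the sources used here, so the values of Ndufaf2 and Ndufaf3 are uncertain to that extent.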

How the data were processed

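The libraries were made with the QuantSeq 3′ kit and sequenced from one end for 50 bp. The submitters' processing notes name STAR, UMI-tools, HTSeq, R 4.3.0, DESeq2 1.40.1 and the build GRCm39, without the role of each. The authors deposited whole-number counts per gene and library, used here as deposited. Columns were matched to samples by their description codes, and 0 columns stayed unused. The 5 summary lines, which left 62.18% to 77.49% of a library's reads in genes, were kept out of library sizes. Symbols came from a GRCm38.p6 gene table that matched 52029 of 57010 identifiers.

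The main test was that of edgeR 4.0.16 under R 4.3.3 (filterByExpr, TMM, glmQLFit and glmQLFTest), on ribosomal and total libraries apart with 4 group means each, and on all 56 libraries with 8 group means for contrasts between RNA types. Standard errors were the log2 fold change over the root of F. Alternatives were RLE scaling, a filter of only 1 count, DESeq2 1.42.0 (labelled knockouts against controls), 14 libraries alone, the mouse as a block, and libraries left out. Correlations used log2 CPM with a prior count of 2. The fits with 4 group means were also run on simulated counts, for the female knockout contrast only. Those counts were drawn from the fits' own estimates of the spread, and no result here rests on that run.

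The rule for named genes took all members, client subunits, up to 3 called genes of lowest p per list and knockout contrast, the genes most and least correlated with Ndufaf5, its neighbours and Elavl1. Some items that the rule or the lists name are not reported here. Smim15 and Impdh2 were chosen after their values were seen. Members and lists were chosen with earlier results of these data known. Replicates are mice by number in the labels. The labels give a ribosomal and a total library the same mouse number. Over 500 variable genes, such libraries deviated from their groups with a mean correlation of 0.06 (female controls), 0.24 (female labelled knockouts), −0.27 (male controls) and 0.05 (male labelled knockouts). These correlations give the pairing little backing, so the ratios within mice and the block rest on the labels alone. The p-values measure the spread between these mice.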

Additional observations from a re-analysis of the deposited data

Results flagged for a closer look

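In 64 groups of a member and a library group, 8 had a library whose gap to the nearest of the other 6 exceeded 0.568 of the group's range. Chance flags about 1 in 20 groups. The libraries were low for Ndufaf5 in ribosomal female knockout 5 (160.4 CPM, others 223.6 to 269.1), Ndufaf1 in total female knockout 9 (21.94, others 26.46 to 29.55), Ndufaf6 in ribosomal male knockout 2 (24.6, others 55.65 to 72.57), Ndufaf6 in total male control 26 (38.83, others 47.51 to 49.56) and Ndufaf7 in ribosomal female control 19 (0.0, others 13.89 to 23.7). They were high for Ndufaf2 in total male control 22 (19.7, others 15.05 to 16.91), Ndufaf6 in total female control 14 (47.34, others 42.0 to 44.3) and Ndufaf8 in ribosomal male control 20 (449.3, others 204.1 to 288.7).

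Male knockout 2 had 0.16 M counts in its ribosomal library, and female control 19 and male control 20 were under 0.75 M. Total female knockout 9, female control 14 and male control 26 each had over 19% of reads outside genes. In ribosomal RNA of females, leaving out female knockout 5 gave a log2 fold change of 0.97 for Ndufaf5 against 0.89 with it.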

How the results depend on the processing

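Under the alternatives, 378 of 384 results of single members kept their side of the threshold, and none of the called ones changed direction. With 1 library left out, 1336 of 1344 did so. These totals include the comparisons in which Ndufaf5 is given without a test, and nothing is read from them for it there. Ndufaf5 kept its call in ribosomal RNA of females (0.80 to 0.92), ribosomal RNA of males (0.87 to 0.96) and total RNA of males (0.94 to 1.13). With 1 library left out these ranges were 0.85 to 0.97, 0.84 to 0.95 and 1.07 to 1.18. Its value in total RNA of females, where it was selected, lay between 1.16 and 1.34 throughout. The number of members called went from 1 to 2 without the ribosomal libraries under 0.75 M counts in ribosomal RNA of females, and without the filter it went from 1 to 2 between the sexes in ribosomal RNA of controls, where Ndufaf8 was added (−0.50, adjusted p = 0.0237). With 1 library left out, it was 1 to 2 in ribosomal RNA of females and 1 to 2 in total RNA of males. It was 1 in ribosomal RNA of males and 0 in the differences between the sexes. In total RNA of females Ndufaf5 was selected, and no other member was called. Ndufaf1 also lost its call between RNA types in females without the filter (0.32, adjusted p = 0.0951). All genes called in total RNA of males numbered 1824, and 645 without the libraries with most reads outside genes. In ribosomal RNA of females they numbered 1533, and 936 with 14 libraries alone. Without the filter, 626 genes were called against 312 in the difference between the sexes in ribosomal RNA, and 53 against 16 in the ratio change of males. The 0 genes called in the difference between the sexes in total RNA became 4 without the filter, 3 without the libraries with most reads outside genes and 11 without female knockouts 5, 6 and 12, which stood apart in earlier results of these data. Of single libraries, male control 27 (1134 against 1824, total RNA of males), male knockout 14 (538 against 815, ribosomal RNA of males), female control 15 (138 against 312) and female control 19 (498 against 312, both in the difference between the sexes in ribosomal RNA) moved a count most. Libraries were not left out one by one between RNA types or between the sexes of controls.

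With the replicate block, in which libraries of the same mouse number are paired, 0 members were called in the ratio change of either sex, as without it. In females 261 genes in all were called with it against 434 without. Member counts between RNA types in controls with the block were 6 in females and 7 in males, the same as without it. Both female counts include Ndufaf5, which is given without a test there. The ribosomal libraries' depth limits Ndufaf3 and Ndufaf7, which had as few as 1 and 0 counts.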

Other observations

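Of the assembly factors of the other respiratory complexes, single genes were called. Over all genes, 16.8% were called in ribosomal RNA of females, 8.96% in ribosomal RNA of males, 8.49% in total RNA of females and 14.2% in total RNA of males, and nothing particular to these lists is read from the counts. In males the complex V factor Atpaf2 rose in ribosomal RNA (0.79, edgeR adjusted p = 0.00192) and total RNA (0.55, adjusted p = 0.0206), where it was 1 of 4 factors tested, and the complex IV factor Cox16 rose in both (0.71, adjusted p = 0.0149 and 0.70, adjusted p = 0.0192). In the same comparisons Cox19 fell (−0.50, adjusted p = 0.0447 and −0.35, adjusted p = 0.0162), so of 18 complex IV factors tested 1 rose and 1 fell in ribosomal RNA and 2 rose and 1 fell in total RNA, the second rise being Cox17 (0.47, adjusted p = 0.0109). In total RNA of females 2 of 4 complex II factors rose, Sdhaf2 (0.31, adjusted p = 0.0396) and Sdhaf3 (0.28, adjusted p = 0.0351), and 1 of 18 complex IV factors fell, Sco2 (−0.43, adjusted p = 0.0104). The complex III factor Uqcc1 fell in ribosomal RNA of females (−0.39, adjusted p = 0.0446) and males (−0.46, adjusted p = 0.0158), where Lyrm7 fell too (−0.73, adjusted p = 0.0402). Of these, the calls of Sdhaf2, Sdhaf3, Cox19 in ribosomal RNA, Lyrm7 and Uqcc1 in females were lost in 8 to 14 alternatives each, and in total RNA of males Atpaf2 (0.34, adjusted p = 0.236), Cox16 (0.58, adjusted p = 0.161) and Cox17 (0.28, adjusted p = 0.201) were lost without the 5 libraries with most reads outside genes.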
